A study of Mus musculus with 15 samples.

Results

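Lactate moves between cells through monocarboxylate carriers and is exchanged with pyruvate by lactate dehydrogenase. The genes described here are 5 carriers of the SLC16 family (Slc16a1, Slc16a3, Slc16a6, Slc16a7 and Slc16a11), the carrier chaperone Bsg and the dehydrogenase subunits Ldha and Ldhb. They were chosen by gene symbol, and each of the 8 symbols had 1 row among the 37991 genes of the count table. The symbols were picked with earlier results of these libraries known, so their fold changes and p-values are given as descriptions and are not independent support.

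RNA was sequenced from the whole inguinal fat pad, a subcutaneous white adipose depot, of C57BL/6 mice aged 8 weeks, with 5 libraries in each of 3 groups, which the series design gives as 5 mice a group. The dKO mice carried Adipoq-Cre, LKB1 F/F and HDAC4 F/F, and the KO mice carried Adipoq-Cre and LKB1 F/F. The WT mice carried the floxed LKB1 F/F alleles without Cre, so the name WT does not mean wild-type alleles, and no group with Cre alone or with HDAC4 F/F alone was used here. Adipoq-Cre acts in adipocytes, so other cells of the depot keep both genes. LKB1 is a kinase upstream of AMPK and is encoded by Stk11, and HDAC4 is a class IIa histone deacetylase.

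Monocarboxylate carriers move lactate, pyruvate or ketone bodies together with a proton, in the direction that the gradients set. MCT1, the product of Slc16a1, is widely expressed and is abundant in oxidative cells, and MCT4, the product of Slc16a3, is known as the lactate exporter of strongly glycolytic cells. White adipocytes release lactate made from glucose, and brown and beige adipocytes of mice can also take lactate up. Lactate dehydrogenase is a tetramer of the subunits encoded by Ldha, which predominates in tissues that make lactate, and Ldhb, which predominates in tissues that oxidise it.

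The sequences upstream of 3 of the genes are shown because Slc16a1 and Ldhb differed most between KO and WT libraries and Ldha is the abundant counterpart of Ldhb. They are the 250 bases before the transcript start in RefSeq, build GRCm38.p6, where 5 of the 8 genes had an entry. Capitals mark matches, on either strand, to CACGTG (an E-box), ACGTG (the core bound by hypoxia-inducible factors, a string that the E-box also holds), TGACG (the core of a cAMP response element) or AAGGTCA (an element bound by oestrogen-related receptors).
Slc16a1, chr3:104638414-104638663, plus strand: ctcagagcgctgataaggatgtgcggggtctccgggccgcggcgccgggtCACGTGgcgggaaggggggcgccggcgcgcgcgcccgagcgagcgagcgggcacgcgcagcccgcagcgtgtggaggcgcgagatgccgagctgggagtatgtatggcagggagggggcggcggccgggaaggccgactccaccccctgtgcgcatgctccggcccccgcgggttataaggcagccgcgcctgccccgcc
Ldhb, chr6:142507958-142508207, minus strand: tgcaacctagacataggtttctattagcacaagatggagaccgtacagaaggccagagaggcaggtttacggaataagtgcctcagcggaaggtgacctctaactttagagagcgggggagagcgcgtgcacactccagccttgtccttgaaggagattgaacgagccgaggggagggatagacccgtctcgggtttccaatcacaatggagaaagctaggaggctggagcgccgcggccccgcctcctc
Ldha, chr7:46845554-46845803, plus strand: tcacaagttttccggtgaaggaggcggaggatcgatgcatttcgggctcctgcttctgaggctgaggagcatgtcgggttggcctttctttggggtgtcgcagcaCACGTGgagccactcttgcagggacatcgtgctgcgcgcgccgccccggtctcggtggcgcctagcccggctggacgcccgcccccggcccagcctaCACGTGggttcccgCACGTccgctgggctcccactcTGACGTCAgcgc
The Slc16a1 stretch held 1 E-box, which started 200 bases before the start site. The Ldha stretch held 2 E-boxes, 145 and 48 bases before the start, a further ACGTG at 34 bases and TGACG at 12 and 9 bases. The Ldhb stretch held none of these letters. Ldha had another RefSeq start, and the stretch before it is not shown. That stretch held 0 E-boxes, 0 hypoxia-factor cores and 1 cAMP response core, 143 bases before its start. The Ldha matches above thus belong to 1 of its starts, and which start is used in this tissue was not tested. Of 32851 RefSeq promoter stretches of the same length, 6.02% held CACGTG, 16.6% ACGTG, 17.8% TGACG and 4.08% AAGGTCA. These matches are descriptions of letters and say nothing of binding in this tissue.

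Total counts per library ran from 1564004 to 12089891 in dKO, from 2969355 to 21570688 in KO and from 2181109 to 4062909 in WT. Mitochondrial ribosomal RNA took 33.5 to 50% of them. The dKO libraries 1753 and 1753-2 stood apart from the others, with scores of 60.87 and 60.3 on the first principal component (30.2% of the variance), against -39.89 to 12.62 in the other 13 libraries. Their labels share a number, and whether they come from 1 mouse is not given beyond the stated 5 mice a group, so results that rest on them are given without them as well. Barcodes 12 to 16 were used for dKO libraries alone, so barcode and dKO genotype cannot be told apart. Stk11 averaged 19.4 CPM in dKO, 17.97 CPM in KO and 29.55 CPM in WT, with a log2 fold change of -0.69 for KO against WT (adjusted p = 0.115). Hdac4 had 2 rows, and the larger averaged 10.34 CPM in dKO, 10.25 CPM in KO and 12.21 CPM in WT. CPM here is relative to the library size after scaling by TMM, a normalization between libraries.

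In this tissue Slc16a1 was the member that separated the 3 genotypes, highest in KO, intermediate in dKO and lowest in WT. Among the 6 members abundant enough to be tested, 1 rose in KO against WT, and 0.435% of all 12188 tested genes did so. The same 1 of 6 rose in dKO against WT, where 0.427% of all genes did. For dKO over KO, 0 of 6 passed in either direction by edgeR or limma voom, and 0.0738% of all genes passed by edgeR. DESeq2, run without the expression filter, gave a p for 8 members, of which 1 passed. By DESeq2, 37 of 17859 genes with an adjusted p passed. At an unadjusted p under 0.05 by edgeR, 3 members passed for KO over WT (9.54% of all genes), 1 for dKO over KO (6.17%) and 4 for dKO over WT (14.5%). A gene passed when its p from edgeR's quasi-likelihood test, adjusted by Benjamini-Hochberg over all tested genes, was under 0.05. The members' median log2 fold change was 0.2 for KO over WT, -0.0474 for dKO over KO and 0.407 for dKO over WT, where the medians over all genes were 0.00515, 0.00163 and -0.00248. KO against WT and dKO against WT share the WT libraries, and the KO libraries stand in KO against WT and in dKO against KO.

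**Figure D1:**
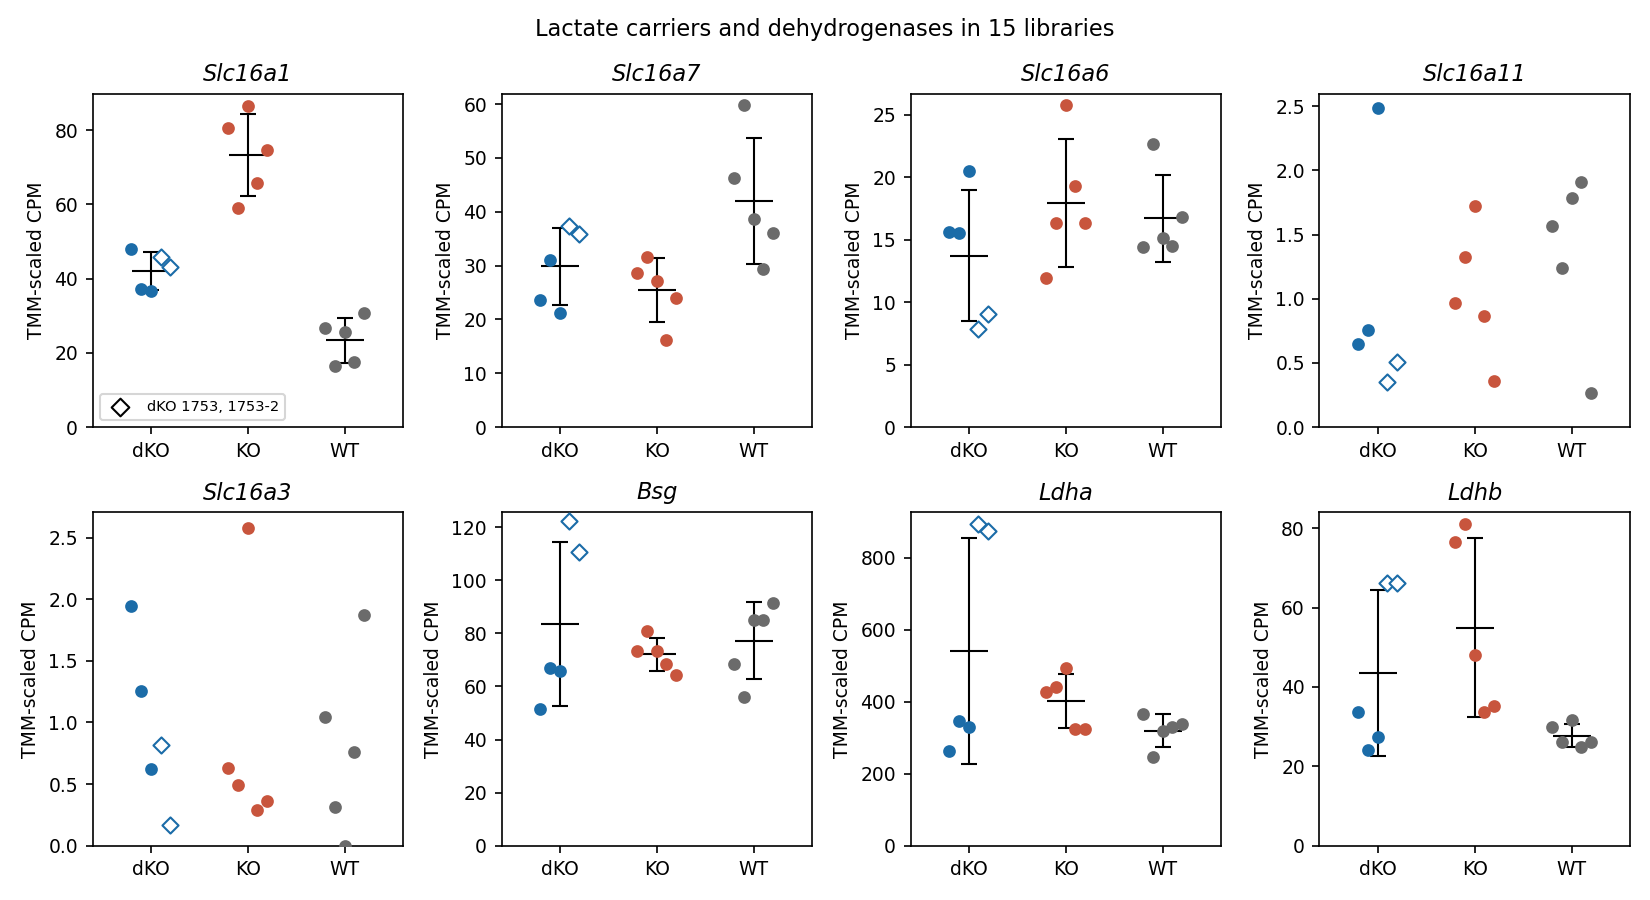
TMM-scaled CPM of each member (vertical axes, CPM, each from 0) in the libraries of dKO, KO and WT, with lines and bars for mean and SD of 5 libraries in the 6 tested genes and open diamonds for the dKO libraries 1753 and 1753-2. The Slc16a1 values of the 3 groups do not overlap, and the 2 diamonds lie far above the other dKO libraries for Bsg, Ldha and Ldhb.

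Slc16a1 (ENSMUSG00000032902) lies on the plus strand of mm9 chromosome 3 from 104442591 to 104462385, with 5 exons. Its level was 48.0, 37.2, 36.7, 45.8 and 43.2 CPM in the dKO libraries, the last pair being 1753 and 1753-2. It was 80.5, 59.2, 86.4, 65.9 and 74.8 CPM in KO and 26.7, 16.4, 25.5, 17.6 and 30.7 CPM in WT. Every KO library was above every dKO library and every dKO library was above every WT library, so none of the 3 pairs of groups overlapped. The share of all tested genes without overlap was 2.11% for genes higher in KO than in WT, 0.5% for genes lower in dKO than in KO and 1.3% for genes higher in dKO than in WT.

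The mean was 42.2 ± 5.09 CPM in dKO, 73.4 ± 11 CPM in KO and 23.4 ± 6.16 CPM in WT (SD, n = 5 each). Slc16a1 rose 3.11-fold in KO against WT, a log2 fold change of 1.64 (SE 0.171, adjusted p = 2.81e-05 by edgeR). It rose 1.80-fold in dKO against WT, a log2 fold change of 0.85 (SE 0.171, adjusted p = 0.0284). Slc16a1 in dKO over KO had a log2 fold change of -0.79 (SE 0.164), with an adjusted p of 0.102 by edgeR and 0.00504 by DESeq2.

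The 12 macrophage markers summed to 742 to 1010 CPM in dKO, 841 to 1130 CPM in KO and 978 to 1960 CPM in WT, and all 12 had negative fold changes in KO and in dKO against WT, with 0 passing by edgeR (7 and 9 at an unadjusted p under 0.05). With the mean log2 CPM of these markers as a covariate, the Slc16a1 log2 fold change was 1.58 in KO against WT (adjusted p = 0.00211, edgeR). In dKO against WT it was 0.76 (adjusted p = 0.536, edgeR). The dKO against WT call was also lost in 10 of the other 24 settings, among them without 1753 and 1753-2 (0.785, adjusted p = 0.108), and without WT replicate 1, 2, 3 or 4 or dKO replicate 4 or 5, with adjusted p from 0.0516 to 0.0879. In whole tissue, fewer cells of a type and less RNA per cell cannot be told apart, and this holds for every gene below.

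Slc16a7 (ENSMUSG00000020102, mm9 chromosome 10, 124663520 to 124766019, minus strand, 7 exons) encodes MCT2, a carrier with high affinity for lactate and pyruvate. It had 23.7, 31.1, 21.1, 37.4 and 35.9 CPM in dKO, 28.7, 31.6, 27.1, 16.1 and 24.0 CPM in KO and 46.3, 59.8, 38.6, 29.4 and 36.1 CPM in WT. Most WT libraries were above the KO and dKO libraries, but the groups overlapped in every comparison. The log2 fold change was -0.71 in KO against WT (SE 0.212, 95% interval -1.16 to -0.267, adjusted p = 0.181, edgeR) and -0.47 in dKO against WT (SE 0.211, adjusted p = 0.322). Between dKO and KO it was 0.24 (SE 0.212, adjusted p = 0.871). When 1753 and 1753-2 were left out, KO against WT passed, with -0.717 and an adjusted p of 0.0464.

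Levels of different genes were compared as CPM per kb of summed exon length. On that scale Slc16a1 averaged 9.53 ± 1.15 in dKO, 16.6 ± 2.48 in KO and 5.28 ± 1.39 in WT. Slc16a7 averaged 7.67 ± 1.86 in dKO, 6.55 ± 1.52 in KO and 10.8 ± 2.99 in WT. The order of these carriers thus differed by genotype, with Slc16a1 first in KO, Slc16a7 first in WT, and overlapping ranges in dKO.

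The ratio of Slc16a1 to Slc16a7 per kb was 1.05 to 1.78 in dKO (median 1.08), 1.65 to 3.59 in KO (median 2.74) and 0.241 to 0.749 in WT (median 0.525). Every WT library was below 1 and every dKO and KO library above 1. Of the 5 carriers' summed CPM per kb, Slc16a1 made up 46.3 ± 4.04% in dKO, 60.6 ± 4.87% in KO and 26.6 ± 7.1% in WT (SD, n = 5 each). Slc16a7 made up 37.1 ± 7.62% in dKO, 24.0 ± 5.34% in KO and 52.9 ± 6.67% in WT. The sum itself was 20.6 ± 1.07 CPM per kb in dKO, 27.4 ± 3.62 in KO and 20.2 ± 3.26 in WT. These shares are descriptions without a test.

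**Figure D2:**
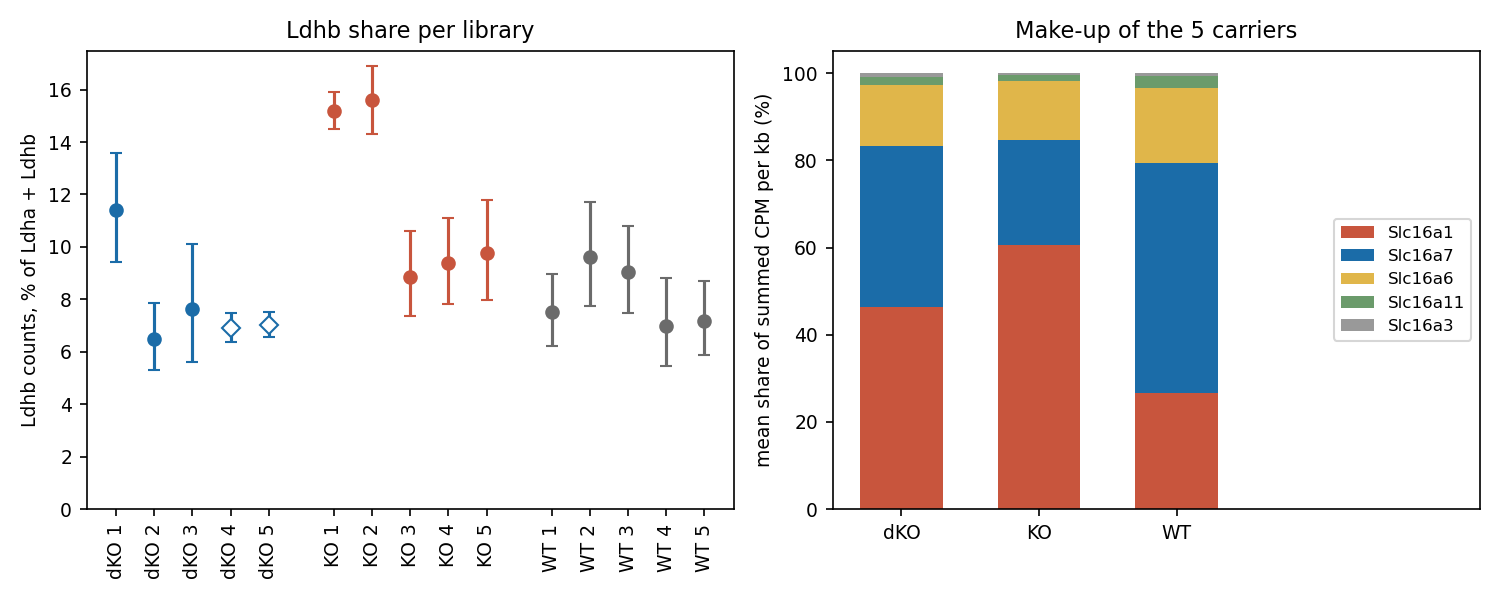
Ldhb counts as a percentage of Ldha plus Ldhb counts in each dKO, KO and WT library, with exact 95% binomial intervals for counting error, and the mean percentage of the summed CPM per kb of 5 SLC16 carriers in each group. Slc16a1 holds 46.3% of the carrier sum in dKO, 60.6% in KO and 26.6% in WT, and the Ldhb percentage is above 15 in 2 KO libraries.

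Slc16a6 (ENSMUSG00000041920, mm9 chromosome 11, 109312169 to 109334912, minus strand, 9 exons) encodes a family member that is needed for ketone body export from the liver of zebrafish. It had 15.6, 15.6, 20.5, 7.83 and 9.07 CPM in dKO, 11.96, 16.4, 25.8, 19.3 and 16.3 CPM in KO and 14.4, 22.6, 15.2, 14.5 and 16.8 CPM in WT. The lowest values were those of 1753 and 1753-2, and the other 13 libraries overlapped across groups. Its log2 fold changes were 0.07 for KO over WT, -0.43 for dKO over KO and -0.37 for dKO over WT, with adjusted p of 0.974, 0.833 and 0.541 (edgeR). Without 1753 and 1753-2 the dKO mean was 17.2 ± 2.86 CPM (n = 3), and dKO against WT was 0.0141. Slc16a6 overlaps Amz2 by 1959 bases and Arsg by 225 bases on the opposite strand, and the strand setting of the counting is not given in the sources used here.

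Slc16a11 and Slc16a3 were too low to be tested. Slc16a11 (ENSMUSG00000040938, mm9 chromosome 11, 70026254 to 70029919, plus strand, 4 exons) had 1 to 20 counts per library and 76 in all. Slc16a3 (ENSMUSG00000025161, mm9 chromosome 11, 120809794 to 120822182, plus strand, 9 exons) had 0 to 13 counts per library and 59 in all, and it overlaps Csnk1d by 2404 bases on the opposite strand. Slc16a3 counts were 6, 5, 1, 7 and 2 in dKO, 13, 3, 6, 1 and 1 in KO and 4, 1, 0, 2 and 7 in WT. Slc16a11 counts were 2, 3, 4, 3 and 6 in dKO, 20, 8, 4, 3 and 1 in KO and 6, 4, 6, 5 and 1 in WT. Differences in these genes were not detectable at this depth, and with the expression filter removed their log2 fold changes lay between -0.839 and 0.221 with SE of 0.587 or more.

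Bsg (ENSMUSG00000023175, mm9 chromosome 10, 79167103 to 79174724, plus strand, 8 exons) encodes basigin, the membrane glycoprotein that brings MCT1 and MCT4 to the cell surface. It had 51.6, 67.0, 65.9, 122 and 111 CPM in dKO, 73.5, 81.0, 73.5, 68.5 and 64.3 CPM in KO and 68.5, 56.1, 84.9, 85.1 and 91.4 CPM in WT. The libraries 1753 and 1753-2 were the highest of all 15, and the rest overlapped. The log2 fold changes of Bsg were -0.10 for KO over WT, 0.22 for dKO over KO and 0.13 for dKO over WT, with adjusted p of 0.944, 0.872 and 0.803 (edgeR). Without those 2 libraries the dKO values turned to -0.229 against KO and -0.337 against WT. The Slc16a1 difference between KO and WT was thus seen without a difference past the test in Bsg, whose 95% interval for KO against WT ran from -0.52 to 0.33.

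**Figure D3:**
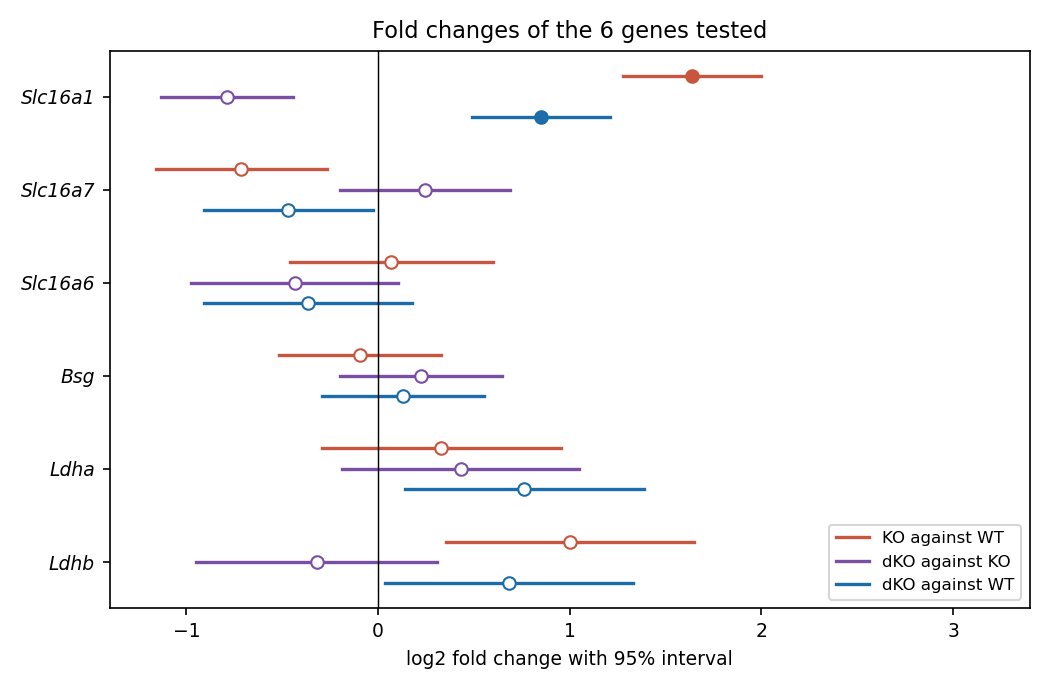
Log2 fold change (horizontal axis) with its 95% interval for the 6 tested members, with 1 row per comparison of KO with WT, dKO with KO and dKO with WT. Filled points passed an adjusted p under 0.05 and open points did not, and the filled points are Slc16a1 in KO against WT (1.64) and in dKO against WT (0.85).

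Ldha (ENSMUSG00000063229, mm9 chromosome 7, 54096845 to 54110997, plus strand, 11 exons) was the most abundant member per length in each genotype, at 182 ± 105 CPM per kb in dKO, 135 ± 25.2 in KO and 107 ± 15.2 in WT. Its level was 262, 348, 331, 894 and 874 CPM in dKO, 426, 441, 495, 325 and 325 CPM in KO and 367, 245, 319, 330 and 338 CPM in WT. The libraries 1753 and 1753-2 were far above all others, and the remaining dKO libraries overlapped both other groups. The log2 fold change was 0.33 for KO over WT (SE 0.295), 0.43 for dKO over KO (SE 0.294) and 0.76 for dKO over WT (SE 0.296), with adjusted p of 0.826, 0.858 and 0.258 (edgeR). Without 1753 and 1753-2 the dKO mean was 314 ± 45.2 CPM, and the values were -0.353 against KO and -0.0369 against WT.

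Those 2 libraries also had the highest summed level of 10 adipocyte markers, 8570 to 8740 CPM, against 5360 to 6420 CPM in the other dKO libraries, 5570 to 6850 CPM in KO and 5070 to 7810 CPM in WT. Fabp4, the most abundant adipocyte marker, averaged 3400 CPM over all dKO libraries and 2710 CPM without 1753 and 1753-2. Cfd alone of the adipocyte markers went the other way, with 656 and 748 CPM. The lymphocyte markers of 1753 and 1753-2 were the lowest, at 156 to 162 CPM. They summed to 411 to 675 CPM in the other dKO libraries, 439 to 612 CPM in KO and 409 to 782 CPM in WT. The part of these markers in the Ldha values was not tested. KO replicate 3, with the highest Ldha of its group, had 3820 CPM of 15 skeletal muscle markers, against 103 to 434 CPM in the other KO libraries. WT replicate 1, also with the highest Ldha of its group, had 1390 CPM of them, against 36.3 to 119 CPM in the other WT libraries. With the mean log2 CPM of the muscle markers as a covariate, Ldha in KO against WT was 0.30 (adjusted p = 0.928, edgeR). The Ldha pseudogenes Ldha-ps and Ldha-ps2 held 3 and 6 counts in all libraries together.

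Ldhb (ENSMUSG00000030246, mm9 chromosome 6, 142438769 to 142456477, minus strand, 9 exons) was higher in every KO library than in any WT library. It had 33.8, 24.1, 27.4, 66.3 and 66.1 CPM in dKO, 76.5, 81.2, 48.1, 33.7 and 35.2 CPM in KO and 29.8, 26.02, 31.8, 24.8 and 26.2 CPM in WT. The lowest KO value was 33.7 CPM and the highest WT value 31.8 CPM. Of all tested genes, 2.11% were likewise higher in KO than in WT without overlap. The KO libraries split, with replicates 1 and 2 far above replicates 4 and 5, and the dKO libraries 1753 and 1753-2 stood above the other 3. KO replicates 1 and 2 and the libraries 1753 and 1753-2 were also the deepest, with 21570688, 6048092, 8305796 and 12089891 total counts. The largest total among the other libraries was 4388048. Those deepest libraries carried barcodes 10, 11, 12 and 13, and the part of depth and barcode in the Ldhb values was not tested. The log2 fold change in KO against WT was 1.004, 2.01-fold (SE 0.307, adjusted p = 0.21 over all 15 libraries, edgeR), and it passed without 1753 and 1753-2 (adjusted p = 0.0222) or with only KO and WT in the fit (adjusted p = 0.0368). In dKO it was -0.32 against KO (SE 0.297, adjusted p = 0.88) and 0.68 against WT (SE 0.307, adjusted p = 0.324). Leaving out 1753 and 1753-2 gave -0.976 (SE 0.268, adjusted p = 0.19) and 0.0254 (SE 0.272, adjusted p = 0.994), by edgeR.

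The 3 dKO libraries other than 1753 and 1753-2 averaged 28.4 ± 4.91 CPM of Ldhb, and 27.7 ± 2.94 CPM was the WT mean. Ldhb made up 11.4, 6.49, 7.64, 6.91 and 7.04% of Ldha plus Ldhb counts in dKO. The share was 15.2, 15.6, 8.87, 9.39 and 9.77% in KO and 7.51, 9.60, 9.06, 6.99 and 7.19% in WT. Only KO replicates 1 and 2 lay above all libraries of the other groups. Group means were 7.89 ± 2.00% in dKO, 11.8 ± 3.33% in KO and 8.07 ± 1.18% in WT, or 14, 20.1 and 14.3% per kb. Intervals on these shares cover counting error only.

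Across genes, the order per kb in WT was Ldha, Bsg, Ldhb, Slc16a7, Slc16a1, Slc16a6, Slc16a11 and Slc16a3. In dKO and KO the order was the same except that Slc16a1 came before Slc16a7. The ranges of neighbours overlapped for Bsg with Ldhb in dKO and KO, for Slc16a1 with Slc16a7 in dKO, for Slc16a7 with Slc16a6 in KO, for Slc16a1 with Slc16a6 in WT, and for Slc16a11 with Slc16a3 in every group.

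Genes whose profile was most like a member's were ranked by Pearson's r of log2 CPM over the 13 libraries other than 1753 and 1753-2, with no p and with group and depth shared by the points. For Slc16a1 these were Plin5, a lipid droplet protein of oxidative tissues (r = 0.974), Ucp1, the uncoupling protein of brown and beige fat (r = 0.972), and Otop1, a proton channel (r = 0.962). Over all 15 libraries their r was 0.952, 0.972 and 0.934. Ucp1 averaged 98.5 ± 23.6 CPM in dKO, 489 ± 202 CPM in KO and 13.9 ± 9.67 CPM in WT, the same order of groups as Slc16a1 over a wider range. Plin5 averaged 8.58 ± 2.38 CPM in dKO, 13.7 ± 3.58 CPM in KO and 2.36 ± 1.10 CPM in WT.

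For Ldha the nearest genes were Ccng1 (r = 0.911) and the glycolytic enzymes Aldoa (r = 0.907) and Tpi1 (r = 0.903). For Ldhb they included the glycolytic enzyme Pgam1 (r = 0.955) and Grpel1, a nucleotide exchange factor of mitochondrial Hsp70 (r = 0.937). For Slc16a7 they were Plekhf1, Tmem179 and the adenosine receptor Adora1, with r from 0.858 to 0.897. For Slc16a6 they were Rabgap1l, Ascc1 and Exoc5, with r from 0.787 to 0.846, but the r of Ascc1 was 0.341 over all 15 libraries. For Bsg they were the nuclear receptor Nr1d1, Abi3bp and Lman1, with r from 0.887 to 0.914, but the r of Nr1d1 was 0.284 over all 15 libraries. Between members, r over the 13 libraries was 0.688 for Slc16a1 with Ldhb, 0.670 for Ldha with Ldhb and -0.646 for Slc16a1 with Slc16a7.

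**Figure D4:**
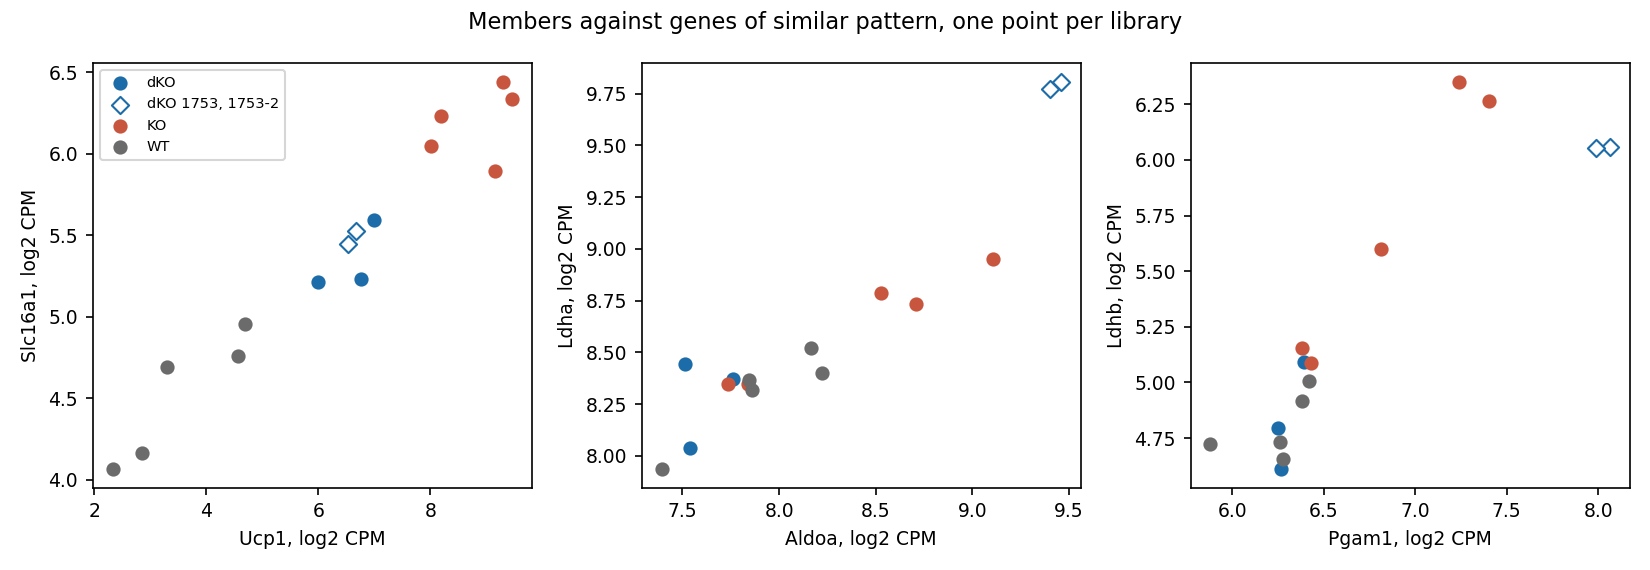
Log2 CPM of Slc16a1 with Ucp1, Ldha with Aldoa and Ldhb with Pgam1 (one gene on each axis), 1 point per library, coloured by dKO, KO and WT. Over the 13 libraries other than 1753 and 1753-2, r is 0.972, 0.907 and 0.955.

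The other carriers and lactate genes did not pass the test in any comparison of all 15 libraries. Among the 6 other SLC16 carriers tested, 0 passed by edgeR, DESeq2 or limma voom in each comparison, with 0, 0 and 3 at an unadjusted p under 0.05 by edgeR for KO over WT, dKO over KO and dKO over WT. Their medians were -0.0114, 0.261 and 0.233. Without dKO replicate 1, 1 of them passed in dKO against WT. Slc16a10, an aromatic amino acid carrier, averaged 42.0 CPM in dKO, 37.3 CPM in KO and 39.8 CPM in WT.

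Of 4 other lactate genes tested, 0 passed by the 3 tools, with 0, 1 and 0 at an unadjusted p under 0.05. Hcar1, the lactate receptor of adipocytes that restrains lipolysis, averaged 81.1 CPM in dKO, 64.9 CPM in KO and 67.6 CPM in WT. Nptn, a relative of basigin, averaged 56.0 CPM in dKO, 62.9 CPM in KO and 54.3 CPM in WT. Emb, the chaperone preferred by MCT2, averaged 17.4 ± 5.39 CPM in dKO, 23.8 ± 2.87 CPM in KO and 21.1 ± 3.93 CPM in WT and was named after its values were seen.

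The steps before and after pyruvate were compared in the same way. Of 16 glycolysis genes, 0 passed by the 3 tools in each comparison, with 3, 0 and 5 at an unadjusted p under 0.05 by edgeR and medians of 0.266, 0.119 and 0.373. Pfkfb3, which makes the activator of phosphofructokinase, averaged 432 ± 131 CPM in dKO, 501 ± 74.8 CPM in KO and 469 ± 103 CPM in WT. Gapdh averaged 460 ± 356 CPM in dKO, 308 ± 104 CPM in KO and 271 ± 49.9 CPM in WT. The Gapdh mean in dKO was 200 ± 20.8 CPM (n = 3) without 1753 and 1753-2. Without them 2 glycolysis genes passed in KO against WT, and 0 passed by edgeR in dKO against KO or WT, where 9 and 2 had an unadjusted p under 0.05, all lower in dKO. Over all 12598 genes of that fit, 1179 and 995 did so in either direction. Of 8 genes of the shuttles that carry NADH electrons into mitochondria, 0 passed by the 3 tools, with 0, 0 and 2 at an unadjusted p under 0.05. Gpd1 of the glycerol phosphate shuttle averaged 625 ± 570 CPM in dKO, 438 ± 146 CPM in KO and 310 ± 79.5 CPM in WT. Mdh1 of the malate shuttle averaged 266 ± 174 CPM in dKO, 181 ± 35.2 CPM in KO and 124 ± 29.8 CPM in WT. The dKO means without 1753 and 1753-2 were 212 ± 89.9 CPM for Gpd1 and 139 ± 16.1 CPM for Mdh1 (n = 3). In that setting 1 shuttle gene passed in KO against WT, and 0 passed by edgeR in dKO against KO (3 at an unadjusted p under 0.05, all lower) or WT (0).

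Of 14 genes of mitochondrial pyruvate entry, Pdk4, the kinase that switches pyruvate dehydrogenase off, rose in KO against WT. Pdk4 averaged 135 ± 65.8 CPM in dKO, 276 ± 91.2 CPM in KO and 73.8 ± 30.9 CPM in WT, and its log2 fold change in KO against WT was 1.91 (SE 0.363, adjusted p = 0.0218, edgeR). The call was lost in 7 of 25 settings: when KO replicate 1, 3 or 5 or WT replicate 2 or 5 was left out (adjusted p from 0.0518 to 0.0681), without the expression filter (0.0901) and with the macrophage covariate (0.164). Without 1753 and 1753-2, 4 genes of this list passed in that comparison. Of the 14 genes, 0 passed in dKO against KO or against WT by the 3 tools, with 3 and 8 at an unadjusted p under 0.05. Without 1753 and 1753-2 those counts were 6, of which 5 were lower in dKO, and 1, and again 0 passed by edgeR. Without dKO replicate 1, 3 passed in dKO against WT. Dlat, a subunit of pyruvate dehydrogenase, averaged 257 ± 142 CPM in dKO, 186 ± 56.9 CPM in KO and 133 ± 29.3 CPM in WT. Dld, a further subunit, averaged 254 ± 127 CPM in dKO, 222 ± 56.9 CPM in KO and 145 ± 17 CPM in WT. The dKO means without 1753 and 1753-2 were 156 ± 46.6 CPM for Dlat and 162 ± 30.5 CPM for Dld (n = 3).

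Of 7 regulators, Ppargc1a and Esrrg rose in KO against WT and Ppargc1a rose in dKO against WT. Ppargc1a encodes the coactivator PGC-1 alpha, which with oestrogen-related receptors is known to raise Ldhb in muscle of mice. It averaged 56.6 ± 16.2 CPM in dKO, 62.9 ± 22 CPM in KO and 23.8 ± 4.11 CPM in WT, a log2 fold change of 1.42 in KO against WT (SE 0.243, adjusted p = 0.00769, edgeR) and of 1.27 in dKO against WT (SE 0.243, adjusted p = 0.0218). With the macrophage covariate the adjusted p was 0.0969 and 0.373, and without 1753 and 1753-2 the dKO value had an adjusted p of 0.171. That dKO call was also lost without WT replicate 1, 2, 3 or 5 or dKO replicate 4 or 5, with adjusted p from 0.0553 to 0.0747.

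Esrrg, an oestrogen-related receptor, averaged 7.20 ± 1.04 CPM in dKO, 14.8 ± 3.48 CPM in KO and 5.53 ± 2.75 CPM in WT, with 1.41 in KO against WT (SE 0.267, adjusted p = 0.0145, edgeR). Its adjusted p was 0.258 with the macrophage covariate and 0.0518 without KO replicate 1. Of the 7 regulators, 0 passed by the 3 tools in dKO against KO, with 1 at an unadjusted p under 0.05, or 3 without 1753 and 1753-2, of which 2 were lower in dKO. The hypoxia factors Epas1 and Arnt, the most abundant of the list, averaged 232 and 80.4 CPM in dKO, 247 and 75.8 CPM in KO and 236 and 90.2 CPM in WT.

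Of 5 thermogenic markers tested, Ucp1, Dio2, Cox7a1 and Cox8b rose in KO and in dKO against WT. The other one, Cidea, was named after its values were seen and averaged 7.51 ± 3.2 CPM in dKO, 20.4 ± 4.56 CPM in KO and 10.3 ± 7.28 CPM in WT. Its log2 fold change was 0.98 in KO against WT and -0.39 in dKO against WT, with adjusted p of 0.36 and 0.675 (edgeR). The Ucp1 log2 fold change was 5.10 in KO against WT (SE 0.451, adjusted p = 2.81e-05, edgeR) and 2.80 in dKO against WT (SE 0.419, adjusted p = 0.00457). Ucp1 in dKO against KO fell by 2.31 on the log2 scale (SE 0.387, adjusted p = 0.0393). That fall was no longer past the threshold in 12 of 25 settings, with adjusted p up to 0.185 without 1753 and 1753-2, and any of KO replicates 1 to 3 or any dKO replicate left out gave 0.054 to 0.172. The other tested markers did not pass in dKO against KO, with log2 fold changes from -1.37 for Cidea to -0.08 for Cox8b. The Cox8b rise in KO against WT was lost in 7 of 25 settings, with adjusted p from 0.0585 to 0.0731 when KO replicate 1, 2 or 3 or WT replicate 2, 3 or 4 was left out and 0.252 with the macrophage covariate. Of the dKO rises, those of Cox7a1 and Cox8b were lost without WT replicate 1, 2, 3 or 4 or dKO replicate 4 or 5, with adjusted p from 0.0637 to 0.0979. Among the thermogenic markers in dKO against WT, 4 passed in all libraries, 1 without 1753 and 1753-2 and 0 with the macrophage covariate, where 4 had an unadjusted p under 0.05.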

How the data were processed

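Total RNA came from an RNeasy preparation and cDNA libraries from NuGEN Ovation reagents, per the labels' protocols. The submitters' processing notes name Subread, featureCounts, FastQC and edgeR, with mm9 as the build and no versions. How strand and multi-mapping reads were treated is not given in the sources used here. The deposited table gives raw read counts for every gene in each of the 15 libraries, per the file headers, and 45 other per-sample columns were not used. The other deposited column used is the summed exon length per gene, per the file headers.

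The counts were analysed as deposited in R 4.3.3 with edgeR 4.0.16. The expression filter (minimum count 10, minimum total 15) left 12188 genes. Libraries were scaled by TMM, and all 15 were fitted together by robust quasi-likelihood with 1 mean per group. Comparisons were two-sided, with Benjamini-Hochberg adjustment over the 12188 genes and a threshold of 0.05. SE is the size of the log2 fold change divided by the square root of F. The fit was tested on simulated data. P-values weigh the difference between groups against the spread between these libraries. All 15 libraries counted as separate replicates, including the dKO libraries whose labels share a number. Whether those libraries come from 1 mouse is not given, so p-values that include them speak for libraries rather than for mice.

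The members, gene lists and tests were chosen with earlier results of these data known. The text names all 8 members, from each list up to 4 genes past the threshold in a comparison by p or else the 2 most abundant, and for each tested member the 3 genes of highest r. Some results that this rule selects are not reported here. Marker lists for endothelial, Schwann, red and epithelial cells were also summed: endothelial markers ran over 239 to 320 CPM in dKO, 285 to 302 in KO and 215 to 334 in WT, Schwann markers over 59.1 to 73 in dKO, 51.2 to 79.7 in KO and 66.4 to 81.6 in WT, and none of these lists had a gene past the threshold by edgeR. Red cell markers ran over 34.7 to 179 in dKO, 79.1 to 105 in KO and 40.6 to 146 in WT, and the 6 epithelial markers, all under the filter, over 2.92 to 42.9 in dKO, 0.726 to 4.41 in KO and 2.17 to 38.2 in WT. Other settings were median-of-ratios scaling, no filter, DESeq2 1.42.0, limma 3.58.1 voom, only the groups compared, summing or leaving out 1753 and 1753-2, removal of mitochondrial ribosomal RNA, muscle and macrophage covariates, and leaving out each library.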

Additional observations from a re-analysis of the deposited data

Results flagged for a closer look

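Of 27 groups of 5 values checked, 3 had a library far from the rest, and chance alone gives about 1 in 20. In dKO, replicate 3 had 2.49 CPM of Slc16a11, where the nearest library had 0.753 CPM, on 4 counts. In dKO, replicate 1 had an Ldhb share of 11.4% of Ldha plus Ldhb counts, where the nearest library had 7.64%. In KO, replicate 3 had 2.58 CPM of Slc16a3, where the nearest library had 0.629 CPM, on 6 counts, and this library also had 3820 CPM of skeletal muscle markers.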

How the results depend on the processing

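No paired analysis was possible because no mouse number in the labels is shared between groups. The Slc16a1 rise in KO against WT kept its call in all 25 settings, with log2 fold changes of 1.54 to 1.74. Of the members, 1 passed in KO against WT, and 2 with only the groups compared and 3 without 1753 and 1753-2 (1 in every fit that left out 1 library). For dKO against KO, 0 passed by edgeR (1 at an unadjusted p under 0.05, or 3 without 1753 and 1753-2, all lower in dKO) and 1 by DESeq2. Over all genes, 752 of 12188 had an unadjusted p under 0.05 by edgeR in that comparison. Without 1753 and 1753-2 the number was 1179 of 12598, of which 680 were lower in dKO. In dKO against WT, 1 passed, and 0 to 1 with 1 library left out. The count was 0 by voom (1 at an unadjusted p under 0.05), with only the groups compared and with 1753 and 1753-2 summed. It was also 0 without both (3 at an unadjusted p under 0.05) and with the macrophage covariate (2). Over all genes, an unadjusted p under 0.05 was seen for 1269 of 12188 by voom. It was seen for 995 of 12598 without both and for 893 of 12188 with the macrophage covariate.

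Over all genes, KO against WT gave 76 calls, and 163 by DESeq2, 275 by voom, 224 with only the groups compared, 270 without 1753 and 1753-2, 45 with the muscle and 26 with the macrophage covariate, and 36 to 93 with 1 library left out. In dKO against KO there were 9, and 19 with no filter, 37 by DESeq2, 5 with only the groups compared, 4 with 1753 and 1753-2 summed, 19 without both, and 4 to 13 with 1 library left out. In dKO against WT there were 75, and 220 by DESeq2, 28 by voom, 32 with only the groups compared, 26 summed, 30 without both, 45 with the muscle covariate, 0 with the macrophage covariate by edgeR (893 at an unadjusted p under 0.05), and 27 to 240 with 1 library left out. The cause was not tested.

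Signs turned for values that never passed. Slc16a6 in KO against WT was -0.0218 by voom, -0.0912 with the macrophage covariate and -0.0967 without KO replicate 3 (-0.0967 to 0.207 over all fits that left out 1 library). Without 1753 and 1753-2, dKO against KO was -0.229 for Bsg and -0.353 for Ldha, and dKO against WT was -0.337 for Bsg, -0.0369 for Ldha and 0.0141 for Slc16a6. Bsg in dKO against WT was also -0.0617 by voom, -0.0326 summed, -0.0458 without dKO replicate 4 and -0.00532 without dKO replicate 5 (-0.0458 to 0.243 over the fits that left out 1 library). Low depth limits Slc16a3 and Slc16a11 most, with 59 and 76 counts in all.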
